A study of Mus musculus with 24 samples.

Results

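The kidney was compared between male C57BL/6J mice of 90 weeks (90W, aged) and of 10 weeks (10W, young), with RNA from 3 kidney samples at each age. These are 6 of the 24 arrays of a study that also measured the lung, the liver and white adipose tissue (WAT) at both ages to describe how mouse organs age. The labels name no allele, transgene or treatment for any of the 6 kidneys, so the groups differ in age alone as far as the labels go. The samples of an age are numbered and not described as separate animals, so the p-values measure the spread between these samples. Total RNA was labelled with Cy3 and hybridised to Agilent arrays in 1 colour. Levels are given as the log2 of the background-subtracted signal minus the 75th percentile of that array, called the relative log2 signal below, and a change is the mean at 90 weeks minus the mean at 10 weeks. A level can be compared between kidneys for 1 gene but not between genes, since each probe has its own brightness. The groups were taken from the labels, and 40 lists of genes of nephron segments, injury, fibrosis, immune cells and other cell types were read.

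The kidney filters blood in the glomerulus, where podocytes wrap the capillaries, and then recovers salt, glucose, amino acids and water along the tubule, from the proximal tubule through the loop of Henle and the distal segments to the collecting duct. The proximal tubule does most of this work and is the part most easily injured. Injured tubule cells switch on a small set of genes, and kidneys that do not recover gather fibroblasts, matrix and immune cells. In old mice and people such changes are well known.

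The arrays were of kidney: 9 of 10 kidney marker genes, from Slc34a1 of the proximal tubule to Aqp2 of the collecting duct, were higher in each of the 6 kidneys than in all 18 arrays of the other tissues. The exception was Pvalb, which reached down to -1.75 in the aged kidneys and there lay within the range of the other tissues. Between 64.7% and 71.1% of the probes of a kidney array were well above background, and the arrays of an age correlated with each other at 0.992 or more. The 75th percentile of the signal was lower in the young kidneys (460 to 618 units) than in the aged ones (788 to 862), and scaling the arrays to added control RNAs (spike-ins) instead moved the median change of all genes from -0.23 to 0.16. Some kidneys stood apart from others of their age, and these are named at the genes they touch. Young kidney 1 was highest of the young for fat and red cell genes. Aged kidneys 2 and 3 had higher fat cell means (0.56 and 1.08) than young kidney 1 (-0.17). Red cell means of young kidneys 1, 2 and 3 were 5.22, 0.75 and 3.84. Young kidney 3 was above the other young kidneys for several inflammation genes, and aged kidney 1 lay farthest from the young kidneys in many lists. All 6 arrays lay on 1 slide, with young kidneys 1 and 2 in the first of its rows and young kidney 3 in the same row as the aged kidneys.

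Age was tested by limma over 31505 genes and unmatched transcripts (entries), with p-values adjusted over all of them. At an adjusted p under 0.05, 6483 entries (20.6%) were higher and 13410 (42.6%) lower at 90 weeks, 63.1% in all. Of these, 3623 (11.5%) were at least 2-fold higher and 3066 (9.73%) at least 2-fold lower. With spike-in scaling the split turned to 9281 higher (29.5%) and 4392 lower (13.9%), so small changes in either direction depend on the scaling. The 3 young and 3 aged values did not overlap for 70.7% of the entries. For a single gene, an exact two-sided permutation of 3 against 3 samples cannot give a p below 0.1. In bulk tissue, fewer cells of a kind and less RNA in each cell cannot be told apart.

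The lists held 495 genes, of which 475 were tested, 13 were too dim and 7 had no probe under that symbol. Of the tested genes 267 (56.2%) were higher and 137 (28.8%) lower at 90 weeks, beside 20.6% and 42.6% of all entries. For 417 of the 475 the groups did not overlap, beside 70.7% of all entries. The direction followed the role of the list. Genes of the tubule were mostly lower, and genes of podocytes, injury, matrix and immune cells mostly higher. The number lower was 119 with quantile normalization, 92 with spike-in scaling and 69 in a fit of all 24 arrays, which takes 1 spread for all 4 tissues. The tubule genes named below that lost their call in that fit were Lrp2, Kap, Pck1, Fbp1, Slc38a3, Slc14a2, Umod, Wnk4, Scnn1a, Atp6v1c2, Slc4a1, Hnf4a, Tfcp2l1 and Kl. Of the other genes named, Nphs1, Sox9, Itgb6, Cdkn2c, Col4a3, Col4a4, Col4a5, Plau, Kdr, S100a8, S100a9, Elane, Cr2, Cxcl12, C7, Alb, Ttr and Mup18 lost it. Some genes that rose were well above background in only part of the young kidneys: Cd5l, Pdcd1, Ccl7, Retnla and Adipoq in 1 of 3, and Pappa2, Krt20, Dpt, Pou2af1, Irf4, Ms4a1, C5ar1 and Slpi in 2 of 3. Others, among them Cdkn2a, Cxcl5, Cxcl13 and Gpnmb, were so in no young kidney. They passed the filter on dim probes through the aged kidneys alone, so their direction was set by it, and they are counted among the 267. With only probes well above background on all 6 arrays, 434 listed genes had a value, 234 higher and 139 lower.

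**Figure D1:**
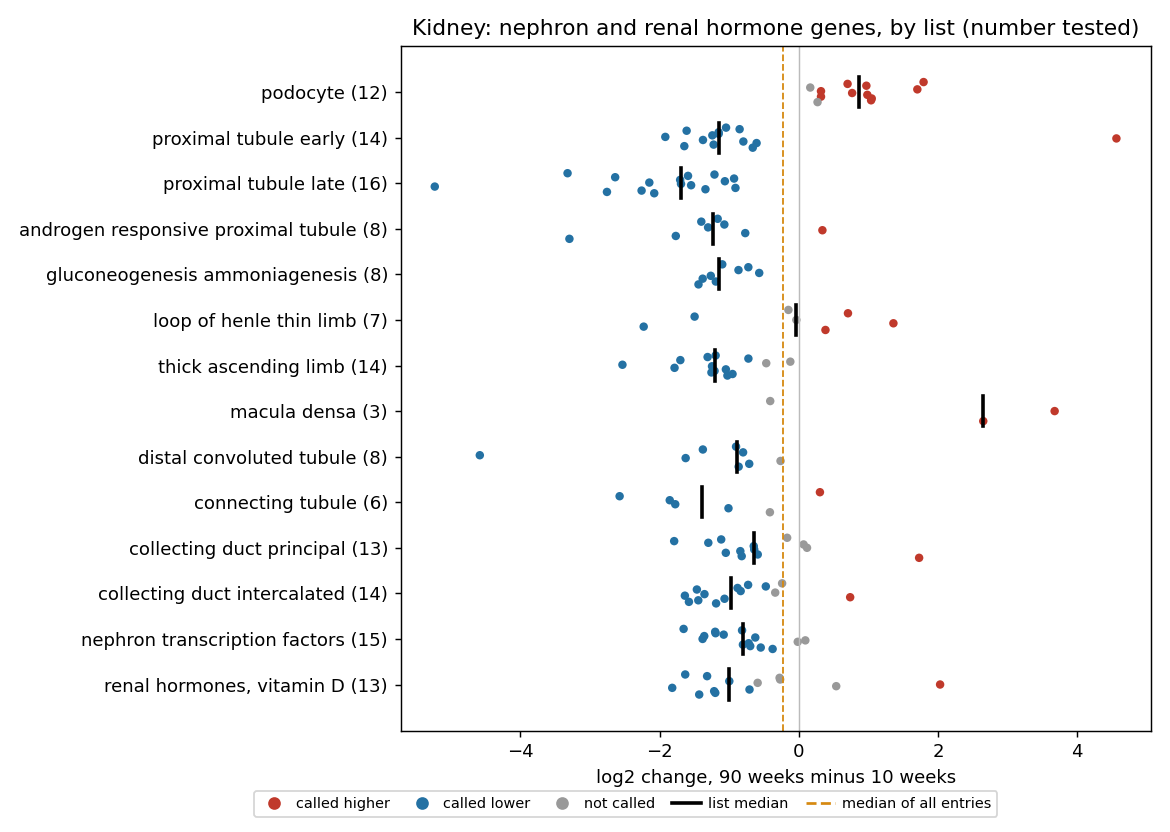
Each point is 1 gene of a nephron or renal hormone list, placed by its log2 change from 10 to 90 weeks (x axis, means of 3 kidneys at each age), with the number of genes tested in brackets; red and blue mark genes called higher and lower by limma, the black bar is the list median and the dashed line the median of all entries, -0.23. The podocyte genes lie to the right of the dashed line, and most tubule genes to its left, with Slc22a7 and Pvalb farthest.

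Podocyte genes were higher at 90 weeks. Of 12 tested, 10 rose and none fell, and the median change was 0.87 (1.26 with spike-in scaling) beside -0.23 over all entries. Nphs1 encodes nephrin of the slit diaphragm, the filter between podocyte foot processes. It read -0.06, -0.10 and -0.09 in the young kidneys and 0.37, 0.32 and 0.01 in the aged ones, a change of 0.32 (SE 0.11, adjusted p = 0.0484). Its groups were close together. The call was lost without each kidney in turn but aged kidney 3, with changes of 0.25 to 0.33, and also with median centring (0.21) and with the mean of its probes (0.28). Cdkn1c, a cell cycle inhibitor of mature podocytes, rose by 1.79 (SE 0.16, adjusted p = 0.00037), and Nes, the intermediate filament nestin, by 1.70. Synpo, a podocyte actin binding protein, rose by 1.04, but 2 of its 3 probes moved the other way and the change of the mean of its probes was -0.017. Wt1 (0.27) and Magi2 (0.16) did not pass the test. Over the list, the mean level was 2.07 in aged kidney 1 and 1.60 in aged kidney 3, all above the young range of 0.98 to 1.06. In a fit of all 24 arrays, 5 of the 12 were higher.

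The early proximal tubule was lower. Of 14 transporters and receptors tested 13 fell and 1 rose, and the median change was -1.15 (-0.76 with spike-in scaling and -0.64 with quantile normalization, with 10 lower in each). Slc34a1, the main phosphate transporter of this segment, read 8.17, 8.19 and 8.30 in the young kidneys and 6.72, 6.94 and 7.27 in the aged ones. The groups were well apart, and the change was -1.24 (SE 0.15, adjusted p = 0.000857). Slc34a3, a second phosphate transporter, fell by 1.92 on the log2 scale and Slc5a2, which takes glucose back from the filtrate, fell by 1.22. The neutral amino acid transporter Slc6a19 fell by 1.65 and Gatm, the enzyme that starts creatine synthesis, by 1.61. The endocytic receptors of filtered protein, Lrp2 (-1.15) and Cubn (-0.85), fell too, and the call of Cubn was lost with spike-in scaling (-0.46). Slc36a2 was the exception. This proton-coupled transporter of small amino acids was well above background in no young kidney and in all aged ones, at least 15.8-fold higher. It passed the filter on dim probes through the aged kidneys alone, so no p is given for it. A fold written as "at least" is a bound, taken over the dimmest signal that the scanner software told apart from background on each young array.

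In the list for the later proximal tubule all 16 genes tested fell, with a median of -1.70 (-1.31 with spike-in scaling). The organic anion transporter Slc22a7 fell most. It read 5.82, 6.05 and 6.21 in the young kidneys, and -0.54, 0.74 and 2.18 in aged kidneys 1, 2 and 3. The aged kidneys were spread widely, but all lay far below the young ones, and the change was -5.23 (SE 0.64, adjusted p = 0.000908), a 37.6-fold drop. Acsm3, which activates medium-chain fatty acids, changed by -3.32, the amino acid transporter Slc7a13 by -2.76 and Cyp7b1, a hydroxylase of sterols, by -2.64. The urate transporter Slc22a12 changed by -2.15 and the organic anion transporter Slc22a6 by -1.55. Over the list the young means lay between 5.69 and 5.89, and the aged means were 3.20, 3.85 and 4.28, with aged kidney 1 lowest.

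Genes of the male proximal tubule, which depend on androgen, were lower in 7 of 8 cases, with a median of -1.24 (-0.78 with 4 lower by quantile normalization, and 3 lower in the fit of all 24 arrays). Kap, the kidney androgen-regulated protein, fell by 0.77 (SE 0.13, adjusted p = 0.00328), a call lost with quantile normalization (-0.24, adjusted p = 0.0645) and in the fit of all 24 arrays (adjusted p = 0.41). Slco1a1, a transporter of organic anions, fell by 3.30. For Slco1a1 the aged kidneys read -1.82, -0.03 and 0.65 against 2.74 to 3.14 in the young ones. Odc1, the enzyme that starts polyamine synthesis, fell by 1.77. All 8 genes of gluconeogenesis and ammonia formation fell, with a median of -1.15. With spike-in scaling (-0.76) and with quantile normalization (-0.60) 6 were lower, and 4 in the fit of all 24 arrays. Among them were Pck1, the enzyme that commits carbon to glucose (-1.27), Fbp1 (-1.10) and the glutamine transporter Slc38a3 (-1.44), none of them called in that fit.

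The loop of Henle divided. In the thin limb, 3 of 7 genes rose and 2 fell. Slc14a2, the urea transporter of the inner medulla, read 2.37, 1.39 and 2.41 in the young kidneys and -1.39, -0.22 and 1.08 in the aged ones, with no overlap, and its change of -2.23 (SE 0.64, adjusted p = 0.0224) lost its call without young kidney 1 (-2.07), young kidney 3 (-2.05) or aged kidney 2 (-2.21); 1 of its 3 probes had the opposite sign. Epha7, a receptor of ephrins, rose by 1.36. In the thick ascending limb, which dilutes the filtrate, 12 of 14 genes fell and none rose, with a median of -1.20, and 7 were lower in the fit of all 24 arrays. Egf, the growth factor that this segment makes and sheds into urine, was 7.01, 6.92 and 7.10 in young kidneys and 3.92, 4.71 and 4.80 in aged ones. The groups lay far apart, and the change was -2.53 (SE 0.24, adjusted p = 0.000411). Umod, uromodulin and the segment's best known product, read 8.55, 8.59 and 8.91 against 7.04, 7.79 and 8.15. Its groups also did not overlap, and the change was -1.03 (SE 0.29, adjusted p = 0.0205), which lost its call without young kidney 3 (-0.91), with quantile normalization (-0.47), with spike-in scaling (-0.64), with the methods' t-test and in the fit of all 24 arrays (adjusted p = 0.199). The channel Kcnj1 fell by 1.25, the tight junction protein Cldn10 by 1.70 and the calcium-sensing receptor Casr by 1.31.

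The macula densa, the cells that sense salt beside the glomerulus, was read through 3 genes, of which 2 rose. The median of 2.65 (0.26 with the background correction normexp) is the fitted value of Ptgs2, which passed the filter on dim probes through the aged kidneys alone. With only probes well above background on all 6 arrays, 1 gene was left, at -0.41 and not called. Pappa2, a protease of IGF binding proteins, read -3.38, -4.21 and -4.91 in the young kidneys and -0.30, -0.38 and -0.80 in the aged ones (change 3.67, SE 0.39, adjusted p = 0.000553). Ptgs2, which makes prostaglandins here and in inflamed tissue, was well above background in no young kidney and was at least 1.92-fold higher in aged ones, a call lost with normexp (0.26). Avpr1a changed by -0.41 and did not pass, and Nos1 was well above background on no array.

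Distal segments were lower as well. In the distal convoluted tubule 7 of 8 genes fell and none rose (median -0.88). With spike-in scaling 5 were lower and the median was -0.49, and 4 were lower in the fit of all 24 arrays. Pvalb, parvalbumin of its early part, had the largest fall: 3.26, 3.05 and 3.03 in young kidneys, and -1.75, -1.05 and -1.62 in aged ones. The kidneys of an age agreed closely, and the change was -4.58 (SE 0.19, adjusted p = 3.85e-05). The salt transporter Slc12a3, the target of thiazide diuretics, fell by 1.63 (SE 0.21), and Wnk4, a kinase that controls it, by 0.86, which lost its call with spike-in scaling (-0.47). In the connecting tubule 4 of 6 genes fell and 1 rose (3 lower with spike-in scaling). The calcium binding proteins Calb1 (-2.58) and S100g (-1.78) and the protease Klk1 (-1.86) were among them. For Calb1 the young kidneys read 6.16, 6.15 and 5.95 and the aged ones 3.22, 3.64 and 3.67.

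The collecting duct differed between its genes. Of 13 principal cell genes 9 fell and 1 rose (median -0.65, and 5 lower and 2 higher with spike-in scaling, median -0.26). Aqp2, the water channel that vasopressin controls, read 3.17, 3.01 and 3.67 in the young kidneys and 2.48, 3.40 and 3.46 in the aged ones. These groups overlapped, the change of -0.17 (SE 0.31, adjusted p = 0.654) was not called, and its sign turned with spike-in scaling (0.22). Avpr2, the vasopressin receptor, fell by 1.30 (SE 0.15, adjusted p = 0.000729), as did the exit water channels Aqp3 (-1.12) and Aqp4 (-1.79) and the sodium channel subunit Scnn1a (-1.05). St6gal1, a sialyltransferase that B cells also express, rose by 1.73. Of 14 genes of intercalated cells, which secrete acid or base, 11 fell and 1 rose, with a median of -0.97. With spike-in scaling 8 were lower and the median was -0.58, and 4 were lower in the fit of all 24 arrays. The anion exchanger Slc26a4 fell by 1.44, the proton pump subunit Atp6v1c2 by 1.47 and Insrr, a sensor of alkali, by 1.64. Kit rose by 0.74.

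Among 15 transcription factors of the nephron, 13 fell and none rose (median -0.80), and 6 were lower with spike-in scaling (median -0.41) and 3 in the fit of all 24 arrays. Hnf4a, which maintains the proximal tubule, read 6.90, 7.03 and 6.85 in young and 5.69, 5.83 and 6.02 in aged kidneys, a change of -1.08 (SE 0.11, adjusted p = 0.000524). Esrrb of the thick limb fell by 1.66 and Lhx1 by 1.38. Tfcp2l1 of the collecting duct fell by 0.38, but its change was 0.013 with spike-in scaling and 0.040 with quantile normalization, neither called. Pax2 (0.09) and Pax8 (-0.02), factors of the developing and adult tubule, did not pass.

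Of 13 genes of renal hormones and vitamin D, 8 fell and 1 rose, and 7 were lower with spike-in scaling. Kl, which encodes klotho, the coreceptor for the phosphate hormone FGF23, read 5.02, 5.02 and 4.96 in the young kidneys and 3.04, 3.16 and 3.36 in the aged ones. There was no overlap and little spread within an age, and the change was -1.82 (SE 0.10, adjusted p = 7.69e-05). The vitamin D receptor Vdr fell by 1.43, the parathyroid hormone receptor Pth1r by 1.22, and Ace, the angiotensin converting enzyme, by 1.63. Renin (Ren1) fell by 1.20, from a mean of 0.90 (SD 0.27) to -0.30 (SD 0.17), without overlap. Cyp27b1, the enzyme that makes active vitamin D, went the other way, from -1.69, -2.11 and -0.39 to 0.25, 0.99 and 0.66 (change 2.03, SE 0.46, adjusted p = 0.00917). Young kidney 3 was the highest of the young for it, still below each aged kidney. Epo (0.54), Cyp24a1 (-0.59), Agt (-0.28) and Agtr1a (-0.27) did not pass.

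**Figure D2:**
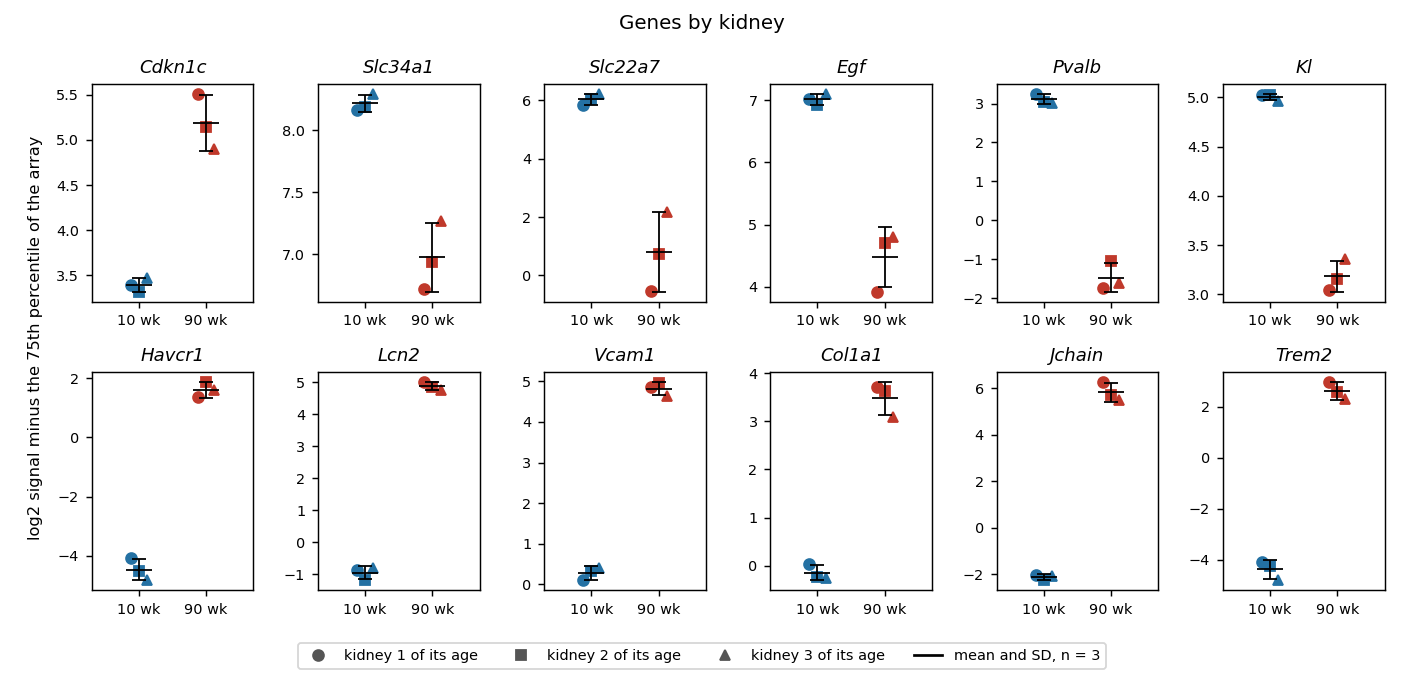
Relative log2 signal (y axis, a separate scale in each panel) of 12 genes in each young (10 weeks, blue) and aged (90 weeks, red) kidney, with symbols for the kidneys of an age and bars for the mean and SD of 3. In none of the 12 panels do the ages overlap, which also holds for 70.7% of all entries. Slc22a7 spreads from -0.54 to 2.18 in the aged kidneys, while Lcn2, Vcam1 and Kl hold close to their means.

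Genes of tubular injury were higher: 24 of 27 rose and none fell, with a median of 1.93 (2.32 with spike-in scaling). Havcr1, the injury molecule KIM-1 of the proximal tubule, read -4.09, -4.52 and -4.81 in the young kidneys and 1.36, 1.88 and 1.60 in the aged ones. All were well above background, and the change of 6.08 (SE 0.22, adjusted p = 2.54e-05) was 67.8-fold. Lcn2, the iron-binding lipocalin used as a urinary marker of injury, rose from -0.85, -1.18 and -0.80 to 5.01, 4.86 and 4.76, by 5.82 (SE 0.13, adjusted p = 9.07e-06). Krt20, a keratin of injured tubules, read -4.87, -5.09 and -2.24 in the young kidneys, 2 of them well above background, and 2.47, 2.47 and 2.28 in the aged ones. Young kidney 3 stood above the other young kidneys by more than the aged ones differed among themselves, and the change was 6.47 (SE 0.74, adjusted p = 0.000721). The matrix protease Mmp7 rose by 5.63, the protease inhibitor Timp1 by 4.99, the hyaluronan receptor Cd44 by 4.42 and the keratin Krt19 by 4.15. Sox9, a regulator of tubule regeneration, rose by 0.49. Krt7 (-0.14), Hmox1 (0.25) and Atf3 (2.25) did not pass.

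Genes that mark tubule cells which stay inflamed after injury (failed repair) were higher in 16 of 18 cases and lower in 1, with a median of 2.21. Vcam1, an adhesion molecule of such cells and of vessels, read 0.09, 0.32 and 0.41 in the young kidneys and 4.86, 4.96 and 4.64 in the aged ones (change 4.55, SE 0.13, adjusted p = 1.61e-05). The kidneys of each age were close together, far from the other age. C3, the central complement protein, rose by 5.31 (SE 0.11, adjusted p = 8.52e-06) from 2.06, 1.94 and 1.88 to 7.43, 7.28 and 7.09. The NF-kappaB subunits Relb (2.49) and Nfkb2 (1.77), the macrophage growth factors Csf1 (2.54) and Il34 (2.06) and Dcdc2a (2.03) rose too. Itgb6, an integrin subunit that activates TGF-beta, fell by 1.31.

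Of 6 cell cycle inhibitors 4 rose and none fell (3 of 5 rose with only probes well above background on all 6 arrays). Cdkn2a, whose products include p16, read -7.85, -7.45 and -7.60 in the young kidneys, none of them well above background. In the aged ones it read -0.52, -0.82 and -1.55, and it was at least 22.2-fold higher. Which of its products the probe reads was not tested. Cdkn2b rose by 1.90 (SE 0.16, adjusted p = 0.000278), Cdkn1a by 1.81 (SE 0.16, adjusted p = 0.000363) and Cdkn2c by 0.45. For Cdkn1a, the p53 target p21, the young kidneys read -1.15, -0.76 and -0.52 and the aged ones 0.99, 1.04 and 0.97. Its aged kidneys differed by less than its young ones. Cdkn1b (-0.03) and Cdkn2d (0.06) did not pass.

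Matrix genes were higher. Among 19 genes of fibrillar and interstitial matrix, 17 rose and 1 fell, with a median of 1.96 (2.35 with spike-in scaling). Col1a1, the main chain of collagen I, read 0.05, -0.22 and -0.24 in the young kidneys and 3.70, 3.64 and 3.08 in the aged ones. The ages were far apart, and the change was 3.61 (SE 0.19, adjusted p = 6.48e-05). Fibronectin (Fn1) rose by 3.29, Col3a1 by 3.14 and the collagen-binding proteoglycan lumican (Lum) by 4.23. Tnc, tenascin C of wounds, was well above background in no young kidney and at least 10.3-fold higher in aged ones. Vcan, versican, fell by 0.76, which lost its call with spike-in scaling (-0.37).

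Genes of the basement membrane split by chain. Of 13, 10 rose and 3 fell, and with spike-in scaling 10 were higher and none was lower. The chains that rose included Col4a1 (0.94) and Col4a2 (0.89), which are laid down in most basement membranes, and Nid1 (1.74), which links collagen IV to laminin. Those that fell were Col4a3, Col4a4 and Col4a5, which together form the collagen IV of the mature glomerular filter. Col4a3 read 1.23, 0.82 and 0.74 in young and -0.03, -0.10 and 0.03 in aged kidneys, without overlap, a change of -0.96 (SE 0.14, adjusted p = 0.00182). Col4a4 fell by 0.83 and Col4a5 by 0.26. With spike-in scaling none of the 3 was called (-0.57, -0.44 and 0.13), and the call of Col4a5 was also lost without each kidney in turn but aged kidney 1 (-0.21 to -0.29).

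Of 13 genes of fibroblasts and myofibroblasts 11 rose and 1 fell, with a median of 1.83. None was lower with spike-in scaling, and normexp gave a median of 1.09. Pdgfra, the growth factor receptor of resident fibroblasts, read 0.83, 0.62 and 0.48 in young and 2.81, 2.55 and 2.07 in aged kidneys (change 1.83, SE 0.21, adjusted p = 0.000678). Mfap5, a microfibril protein, rose by 3.27, Dpt by 2.87, Gli1 by 1.95 and the smooth muscle actin Acta2 by 0.62. Of 18 genes of matrix remodelling and TGF-beta, 16 rose and 2 fell, with a median of 2.50. The macrophage elastase Mmp12 rose by 4.39 (SE 0.29, adjusted p = 0.000128) and the gelatinase Mmp2 by 4.16. The growth factor Tgfb1 rose by 1.98 (SE 0.18) and Tgfb2 by 3.13, while Plau, the urokinase of the tubule, fell by 0.58. The call of Plau was lost with spike-in scaling (-0.19, adjusted p = 0.352), with quantile normalization (-0.17) and in the fit of all 24 arrays, and no gene of the list was lower in any of these.

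Endothelial genes moved little. Of 12 tested, 1 rose, 1 fell and 10 did not pass, with a median of 0.17. With spike-in scaling 7 were higher and none lower. Pecam1, found on all endothelial cells, read -0.49, -0.40 and -0.27 in young and -0.31, -0.27 and -0.36 in aged kidneys. The groups overlapped, with a change of 0.07 (SE 0.09, adjusted p = 0.49), and centring on the median of all entries gave -0.036. Kdr, the VEGF receptor, fell by 0.44, a call lost without young kidney 1 (-0.34) or 3 (-0.45) or aged kidney 3 (-0.37), with quantile normalization (-0.28) or with spike-in scaling (-0.050). Gja5, a connexin of arteries and renin cells, rose by 1.01, with 1 of 2 probes of opposite sign.

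**Figure D3:**
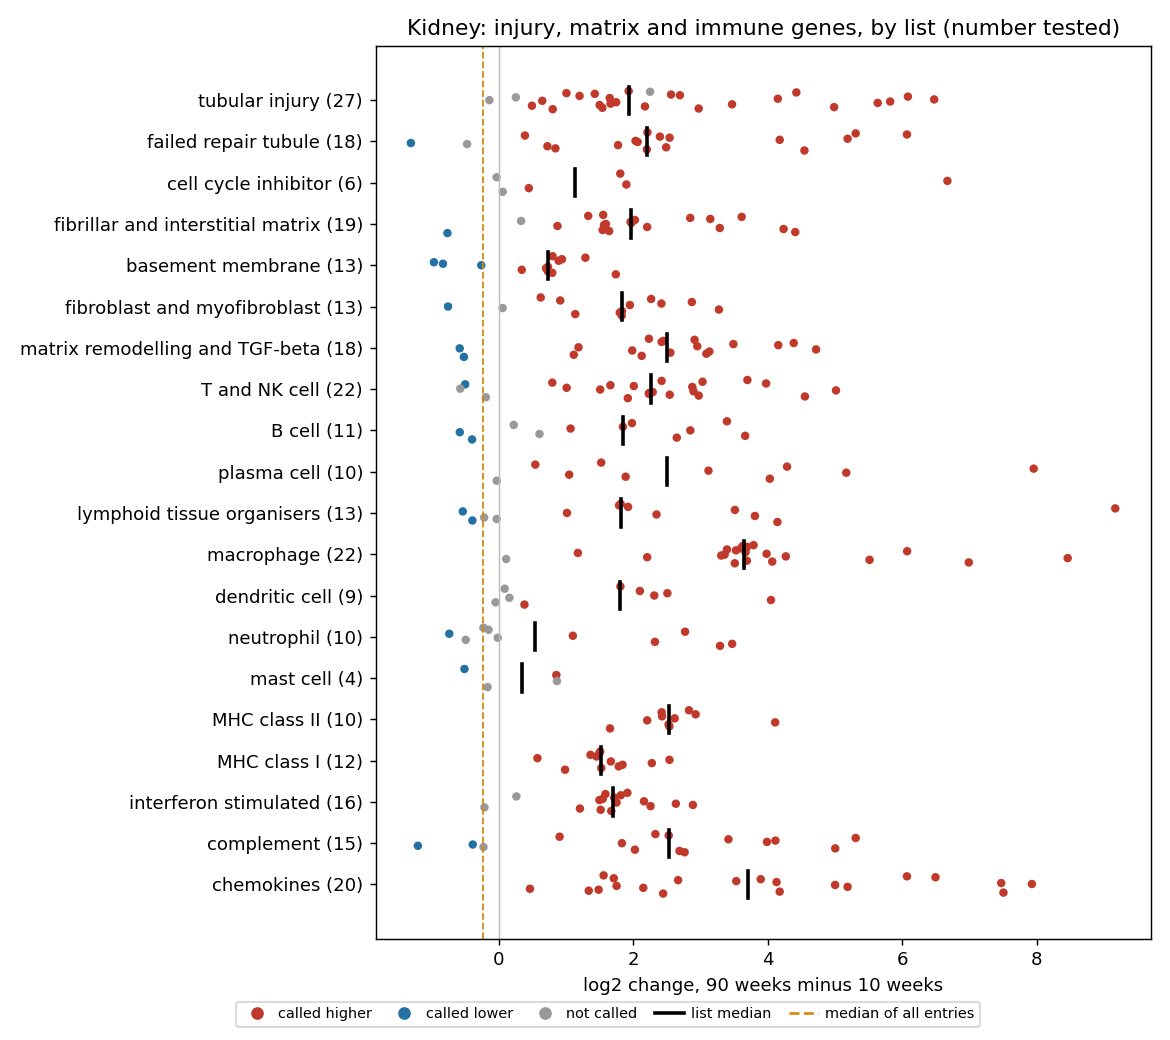
Each point is 1 gene of an injury, matrix or immune list, placed by its log2 change from 10 to 90 weeks (x axis), with the number of genes tested in brackets; red and blue mark genes called higher and lower, the black bar is the list median and the dashed line the median of all entries, -0.23. Chemokine and macrophage genes have the highest medians, 3.71 and 3.65, while those of neutrophil and mast cell genes are 0.54 and 0.35; values of genes too dim at 10 weeks are fitted values and not bounds.

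Macrophage genes rose in 21 of 22 cases and none fell, with a median of 3.65, beside -0.23 over all entries. With only probes well above background on all 6 arrays, 18 of 19 rose (median 3.63). Adgre1, a surface receptor of resident macrophages, read -0.93, -0.84 and -0.84 in the young kidneys and from 2.51 to 3.25 in the aged ones, with a mean of 2.92 (change 3.79, SE 0.19, adjusted p = 5.7e-05). Trem2, a lipid receptor of macrophages in damaged tissue, rose from -4.07, -4.26 and -4.80 to 2.96, 2.58 and 2.30, by 6.99 (SE 0.25, adjusted p = 2.42e-05). In both genes aged kidney 1 was highest and aged kidney 3 lowest. Gpnmb, a membrane protein of lipid-laden macrophages, was well above background in no young kidney and was at least 79.6-fold higher. Cd5l rose by 6.07, the lysozyme Lyz2 by 5.51, Mrc1 by 4.07 and C1qa, a chain of the first complement component, by 3.69. Itgam, an integrin chain that neutrophils share, changed by 0.11 and did not pass. With the mean of its probes Itgam was called lower (-0.35, adjusted p = 0.0245 by limma). Over the list the young means lay from -0.96 to -0.92 and the aged ones from 2.66 to 3.27.

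Of 9 genes of dendritic cells 6 rose and none fell. Itgax, an integrin chain of dendritic cells and macrophages, rose by 4.05, Clec9a of cross-presenting dendritic cells by 2.51 (SE 0.14, adjusted p = 7.39e-05) and Flt3 by 2.31. Neutrophil genes were mixed: 5 of 10 rose, 1 fell and the median was 0.54 (0.01 with normexp), and none was called in the fit of all 24 arrays. With only probes well above background on all 6 arrays, 3 of 8 rose and 1 fell (median -0.084). The alarmins S100a8 (3.47) and S100a9 (3.29) rose. For S100a8 the young kidneys read -3.11, -3.86 and -2.86 and the aged ones 1.02, 0.44 and -0.89. The granule genes Mpo (-0.49), Camp (-0.23) and Mmp8 (-0.02) did not pass, and Elane fell by 0.74, which lost its call with spike-in scaling (-0.34). Mast cell genes numbered 4, of which 1 rose and 1 fell (median 0.35, or -0.17 with normexp), and Cpa3 was well above background in 1 aged kidney only.

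Of 22 genes of T and NK cells 19 rose and 1 fell, with a median of 2.26 (1.06 with normexp). With only probes well above background on all 6 arrays, 14 of 17 rose and 1 fell (median 2.01). Cd3g, a chain of the T cell receptor complex, read -3.73, -4.45 and -3.80 in the young kidneys and 0.22, -0.09 and -0.19 in the aged ones (change 3.97, SE 0.22, adjusted p = 7.55e-05). The groups were far apart. Gzmk, a granzyme of memory T cells, was well above background in no young kidney and was at least 7.81-fold higher in aged ones. The inhibitory receptor Pdcd1 rose by 4.55 and the adhesion receptor Cd2 by 3.70. Cd8a rose by 1.66 and Foxp3 of regulatory T cells by 1.01, a call lost with normexp (0.22) or without aged kidney 1 (0.84). Cd4 fell by 0.50 (SE 0.11, adjusted p = 0.00996), from 2.49, 2.22 and 2.45 to 2.05, 1.79 and 1.83, but the call was lost with spike-in scaling (-0.11, adjusted p = 0.651) and with quantile normalization (-0.29, adjusted p = 0.0761). Gzma (-0.57) and Prf1 (-0.19) did not pass.

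Plasma cell genes rose in 9 of 10 cases, with a median of 2.50 (1.47 with normexp). With only probes well above background on all 6 arrays, 7 of 8 rose and the median was 1.59. Jchain, which joins antibody units into dimers and pentamers, read -2.03, -2.27 and -2.09 in the young kidneys and 6.27, 5.69 and 5.51 in the aged ones. The rise of 7.95 (SE 0.20, adjusted p = 1.32e-05) was 248-fold and among the largest of all genes. Pou2af1 rose by 5.17, Irf4 by 4.29 and Mzb1 by 3.12, and the survival receptor Tnfrsf17 was at least 4.19-fold higher. Of 11 B cell genes, 7 rose and 2 fell, with a median of 1.85, or 0.60 with normexp. By the stricter filter on all 6 arrays, 5 of 8 rose and 2 fell, with a median of 0.84. Cd79b of the B cell receptor rose by 2.85 and Ms4a1, which encodes CD20, by 2.65, while Cr2 fell by 0.58, which was not called with spike-in scaling (-0.19). With that scaling 9 B cell genes were higher and none lower. Blk, a B cell kinase, was well above background in 2 aged kidneys and was not tested.

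The genes that organise lymphoid tissue rose in 9 of 13 cases and fell in 2, with a median of 1.81 (0.62 with normexp). The B cell attracting chemokine Cxcl13 was at least 143-fold higher, and in the aged kidneys read 3.41, 1.07 and 0.69. Aged kidney 1 was far above the other aged kidneys. Tnfsf13b, the B cell survival factor BAFF, rose by 4.14 and lymphotoxin beta (Ltb) by 3.81 (SE 0.17, adjusted p = 4.19e-05). Cxcr5, the receptor of Cxcl13, was at least 3.76-fold higher. Glycam1, a ligand of lymph node vessels, fell by 0.53, but by spike-in scaling its change was -0.14 (adjusted p = 0.521) and no gene of the list was lower. Madcam1 (-0.03) and Ltbr (-0.22) did not pass.

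Antigen presentation was higher throughout. All 10 genes of MHC class II rose (median 2.53), and so did all 12 of MHC class I and the immunoproteasome (median 1.52). H2-Aa, a class II chain, read 1.54, 1.86 and 1.64 in the young kidneys and 4.66, 4.65 and 4.52 in the aged ones (change 2.93, SE 0.11, adjusted p = 2.82e-05). B2m, the light chain of class I, read 5.41, 5.57 and 5.66 against 7.11, 7.01 and 7.05 (change 1.51, SE 0.09, adjusted p = 0.00011). The aged kidneys were within 0.24 and 0.10 of each other in these genes. The peptide transporter Tap1 rose by 1.78 and the proteasome subunit Psmb8 by 2.28. Nlrc5, the activator of class I genes, rose by 2.54, with 1 of 2 probes of opposite sign.

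Of 16 interferon-stimulated genes 14 rose and none fell, with a median of 1.70. Isg15, a ubiquitin-like protein that interferon induces, had a mean of 0.85 (SD 0.23) in young kidneys and read 2.50, 2.61 and 2.69 in aged ones, without overlap (change 1.75, SE 0.13, adjusted p = 0.000206). Oas2, which senses viral RNA, rose by 2.89, the transcription factor Irf7 by 2.16, Bst2 by 1.91 and Ifit3 by 1.50. Rsad2 (-0.21) and Ifi44 (0.26) did not pass. The promoters of Isg15 and Ifit3 are shown because these genes moved together and hold the sequence GAAANNGAA, the core of the interferon response element, on either strand. The sequences are the 250 bases before the transcription start in RefSeq (GRCm38.p6), written 5′ to 3′ on the strand of the gene, with each match in capitals. Isg15 lies at chr4:156200819-156201068 on the minus strand and Ifit3 at chr19:34583279-34583528 on the plus strand.
Isg15: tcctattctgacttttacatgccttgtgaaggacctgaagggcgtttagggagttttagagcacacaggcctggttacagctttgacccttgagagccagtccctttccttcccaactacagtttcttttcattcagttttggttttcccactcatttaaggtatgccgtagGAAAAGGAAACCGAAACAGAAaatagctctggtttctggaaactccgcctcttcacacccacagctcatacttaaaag
Ifit3: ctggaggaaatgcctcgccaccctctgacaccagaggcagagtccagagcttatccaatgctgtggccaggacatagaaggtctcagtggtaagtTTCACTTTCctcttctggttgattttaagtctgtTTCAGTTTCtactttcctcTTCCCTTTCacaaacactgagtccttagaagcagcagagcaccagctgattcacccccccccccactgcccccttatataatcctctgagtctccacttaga
Isg15 has 3 overlapping matches, which begin 78, 72 and 66 bases before the start. In Ifit3 the 3 matches begin 155, 121 and 102 bases before it and are on the other strand. From 250 bases before to 50 after the start, 9 of the 12 listed genes with a promoter sequence held a match, beside 2638 of 27025 genes (9.76%). Both Rsad2 and Ifi44, which did not pass, are among the 9. The motif was chosen after the values were known, and a match is a description of the letters and not a binding site.

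All 20 chemokine genes tested rose, with a median of 3.71 (2.02 with normexp, and 2.44 with only probes well above background on all 6 arrays). The 20 include genes that passed the filter on dim probes through the aged kidneys alone. Ccl8, which draws monocytes, read -4.70, -4.42 and -4.69 in the young kidneys and 3.71, 3.15 and 3.11 in the aged ones (change 7.93, SE 0.19, adjusted p = 9.22e-06). The rise was 243-fold. Ccl2, the main monocyte chemokine, read -2.39, -2.70 and -0.13 in young and 4.53, 4.26 and 4.20 in aged kidneys (change 6.07, SE 0.66, adjusted p = 0.000617). The neutrophil chemokine Cxcl1 read -3.06, -3.08 and -0.82 against 2.35, 3.39 and 2.85 (change 5.19, SE 0.65). For both genes young kidney 3 was above the other young kidneys and still well below every aged one. Cxcl5 was at least 98.2-fold, Ccl20 at least 26.5-fold and Cxcl2 at least 4.53-fold higher, each well above background in no young kidney. Cxcl12, made by resting stroma, rose by 0.46, a call lost with median centring (0.36) and without young kidney 1 (0.41) or 2 (0.40) or aged kidney 1 (0.46) or 2 (0.38). The promoters of the neighbouring genes Cxcl1 and Cxcl2 are shown because they share the sequence GGAATTTCC, a form of the NF-kappaB site, in capitals. They lie at chr5:90890995-90891244 and chr5:90903649-90903898 on the plus strand (GRCm38.p6), again as the 250 bases before the start.
Cxcl1: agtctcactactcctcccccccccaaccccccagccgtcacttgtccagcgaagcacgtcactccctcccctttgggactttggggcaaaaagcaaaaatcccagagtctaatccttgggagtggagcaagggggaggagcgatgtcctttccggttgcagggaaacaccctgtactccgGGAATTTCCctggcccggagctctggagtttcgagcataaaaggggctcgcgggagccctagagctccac
Cxcl2: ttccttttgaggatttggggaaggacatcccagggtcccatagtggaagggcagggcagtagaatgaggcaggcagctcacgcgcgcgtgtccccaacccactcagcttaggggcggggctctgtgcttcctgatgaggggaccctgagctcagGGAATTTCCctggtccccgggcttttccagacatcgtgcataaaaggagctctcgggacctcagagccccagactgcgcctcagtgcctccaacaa
The match begins 70 bases before the start in Cxcl1 and 96 bases before it in Cxcl2. Of the 14 chemokine genes with a promoter sequence 3 held this sequence or its reverse complement, the other being Cxcl10, beside 103 of 27025 genes (0.381%). This motif too was chosen after the values were known, and a match describes the letters and is not a binding site.

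Complement genes rose in 12 of 15 cases and fell in 2, with a median of 2.53. Besides C3, C4b rose by 4.11 (SE 0.16, adjusted p = 3.22e-05), the protease C1ra by 2.33 and the receptors C5ar1 and C3ar1 by 3.99 and 3.41. Cd55, which protects cells from complement, fell by 1.20 (SE 0.12, adjusted p = 0.000476), from 0.75, 1.05 and 1.12 to -0.25, -0.30 and -0.15. Its groups did not overlap. C7 fell by 0.39, but its change was 0.0042 with spike-in scaling.

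Genes of other cell types that a kidney sample can carry were read too. Of 8 fat cell genes 5 rose and 2 fell (median 1.69, or 0.60 with normexp). Only 1 was higher without young kidney 2 or 3 or aged kidney 2 or 3, with medians of 1.19, 1.55, 1.55 and 1.21, and only 1 with the replicate block or the methods' t-test. Cfd, adipsin, read 0.24, -4.90 and -4.75 in the young kidneys and -0.19, 2.09 and 3.70 in the aged ones. Young kidney 1 was above aged kidney 1, so the groups overlapped, and the change of 5.00 (SE 1.64, adjusted p = 0.0361) lost its call without young kidney 2 (4.12) or 3 (4.20) or aged kidney 2 (4.89) or 3 (4.09). Adipoq, adiponectin, read -2.98, -7.40 and -7.45 against -3.35, -1.28 and -0.53, with the same pattern and the same kidneys deciding its call (3.50, 3.47, 4.01 and 3.63 without each). The mean over the fat cell list was -0.17, -2.09 and -1.85 in the young kidneys and -0.61, 0.56 and 1.08 in the aged ones. Its part in the rise of Cfd among the complement genes was not tested. Among the aged kidneys, aged kidney 1 had the lowest fat cell mean and the highest macrophage and matrix means, 3.27 and 1.67. Whether the fat level bears on those lists was not tested.

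Red cell genes differed between kidneys of 1 age. Hba-a1, a haemoglobin chain, read 8.50, 3.02 and 6.98 in the young kidneys and 5.67, 4.34 and 4.62 in the aged ones. The groups overlapped, and the change of -1.29 (SE 1.36, adjusted p = 0.435) was not called. Of the 5 red cell genes tested Slc4a1, also the anion exchanger of acid-secreting intercalated cells, fell by 1.58 and the others were not called. The median of -1.29 rested on single young kidneys: without young kidney 2 all 5 were lower with a median of -2.77, and without young kidney 1 the median was -0.12 with 1 lower. Of 8 genes of the urothelium, which lines the renal pelvis, 2 rose and 3 fell, but only 1 was lower without young kidney 2 or 3 or aged kidney 1 or 3. Upk3a, a plaque protein of that lining, read -3.41, -1.74 and -2.37 in young and -4.54, -3.44 and -4.66 in aged kidneys. Its fall of 1.71 on the log2 scale lost its call without young kidney 2 (-1.32) or 3 (-1.64) or aged kidney 1 (-1.54) or 3 (-1.48). Psca rose by 2.61. Of 4 adrenal genes tested Hsd3b1 fell by 1.79, while Cyp11a1 and Cyp11b2, which define that gland, were well above background on no array. Of 6 genes best known from the liver 4 fell, among them Alb (-1.35) and Ttr (-1.10), and none was called in the fit of all 24 arrays.

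**Figure D4:**
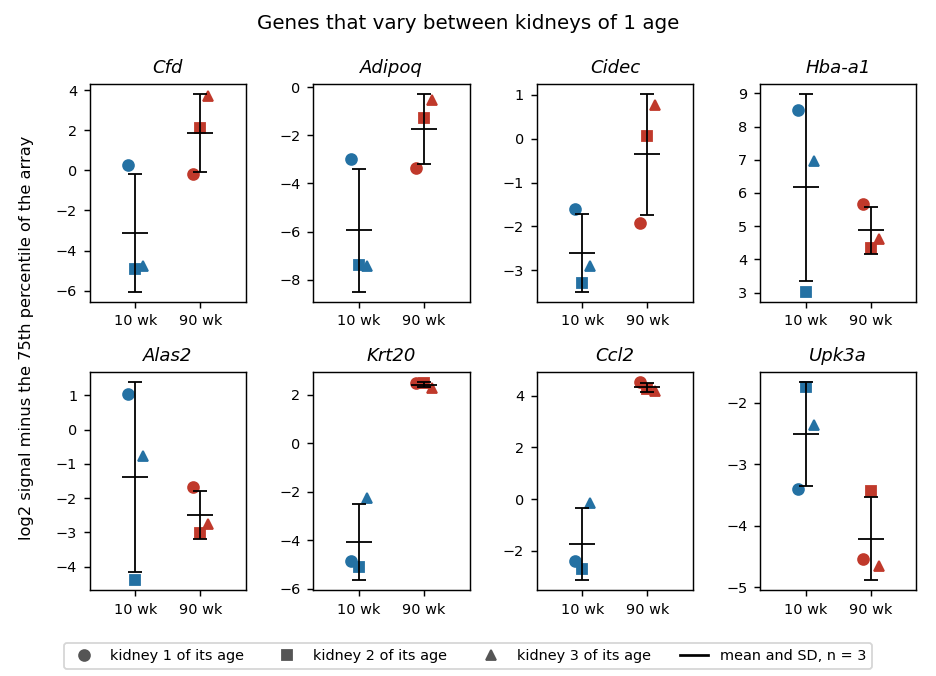
Relative log2 signal (y axis, a separate scale in each panel) of 8 genes that differ between kidneys of 1 age, with blue for 10 and red for 90 weeks, a symbol for each kidney and bars for the mean and SD of 3. Young kidney 1 is highest of the young for Cfd, Adipoq, Cidec, Hba-a1 and Alas2, and young kidney 3 for Krt20 and Ccl2.

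Over all genes with a symbol, the 10 with the largest fitted rises included Cxcl13, Grem1, Gpnmb and Cxcl5. No young kidney measured these 4 well above background, so they have bounds and no order among the 10. Grem1, an antagonist of bone morphogenetic proteins, was at least 101-fold higher, with aged kidneys at 1.52, 1.21 and 0.93. Of those well above background in all 6 kidneys, Jchain and Ccl8 rose most, and then Ltbp2 (7.66), a matrix protein. Retnla, made by alternatively activated macrophages, rose by 7.90. Slpi, an inhibitor of neutrophil elastase, rose by 7.62, with 1 of 2 probes of opposite sign, and Ccl7 by 7.47. For Ltbp2 the young kidneys read -4.27, -4.40 and -4.45 and the aged ones 3.57, 3.49 and 2.78. The largest falls were those of Gm6300 (-5.50, with 2 aged kidneys well above background), Slc22a7, Akr1c18 (-4.81), a reductase of steroids, Pvalb, the protease Tmprss9 (-4.25) and the organic anion transporter Slc22a19 (-4.13). Perm1 (-4.00), a muscle and mitochondrial regulator, the noncoding Sox2ot (-4.00, with 1 aged kidney well above background) and Ldc1 (-3.93) came next. Mup18, of the major urinary proteins, was at least 7.17-fold lower, with no aged kidney well above background, and lost its call without aged kidney 1 (-3.44). For Akr1c18 the aged kidneys read -3.54, -2.24 and -1.48 against 2.24 to 2.49 in the young ones. Aged kidney 1 was the lowest of the 3, as for Slc22a7 and Slc22a19.

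The change in the kidney was set against the mean change of liver, lung and WAT, in 1 fit of all 24 arrays over the 25773 entries measured in every tissue. Of these 1961 (7.61%) changed more upward in the kidney and 3762 (14.6%) more downward, and the median difference was -0.14. Matrix genes stood out in this test: 16 of 18 changed more upward in the kidney and 1 more downward. Col1a1 changed by 3.61 in the kidney, 1.27 in the liver, -1.93 in the lung and -0.42 in WAT, and the difference was 3.97 (SE 0.53, adjusted p = 5.99e-05). Of the basement membrane genes 8 of 10 and of the failed repair genes 11 of 14 differed in the same direction. C3 changed by 5.31 in the kidney and by -0.06, 0.31 and 1.47 in liver, lung and WAT. Of the macrophage genes 18 of 22 rose more in the kidney than in the mean of the others, of MHC class I 10 of 12 and of MHC class II 7 of 9. The macrophage median was 3.65 in the kidney, 2.15 in the liver, 0.61 in the lung and 2.24 in WAT. For MHC class II the medians were 2.52, 1.66, 0.22 and 0.33 in the same order. The macrophage genes compared include Gpnmb, which no young kidney measured well above background. Of T and NK cell genes 7 of 22 rose more and 1 less, of plasma cell genes 3 of 9 and of interferon-stimulated genes 2 of 16 rose more, and no neutrophil gene of 10 differed either way. Trem2 changed by 6.99, 4.67, 1.94 and 5.01 in kidney, liver, lung and WAT. It rose in every tissue, and more in the kidney than in the mean of the others, of which the lung was lowest (difference 3.12, SE 0.70, adjusted p = 0.00432 by limma). Tubule genes could be compared only where every tissue measured them: 5 of 9 genes of the late and 3 of 7 of the early proximal tubule fell more in the kidney. Their median changes were -1.34 and -1.15 in the kidney and -0.83 and -0.65 in the liver. Calls in both directions depend on the tissue compared, and downward calls also on the scaling. Upward calls numbered 1111 against the liver alone, beside the 1961 above. Downward calls over all entries numbered 313 with spike-in scaling and 1312 against the liver alone, beside the 3762 above. Of 11 podocyte genes 4 rose more in the kidney.

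**Figure D5:**
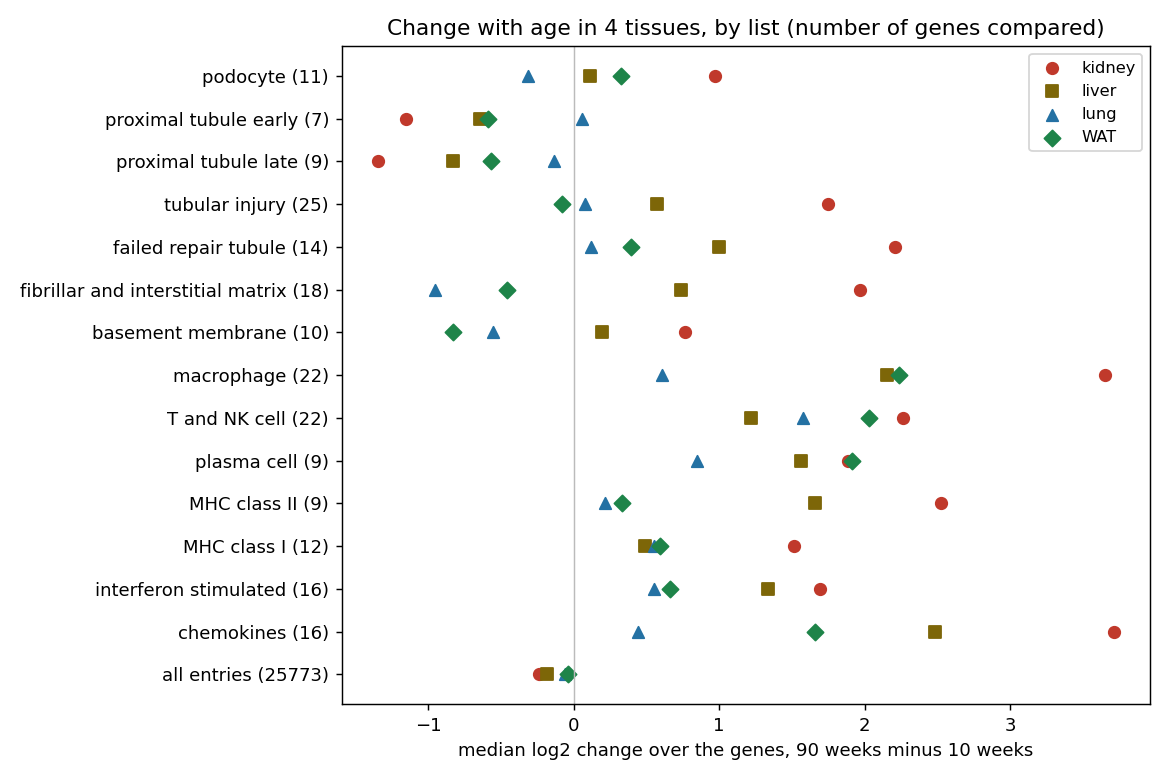
Median log2 change from 10 to 90 weeks (x axis) of the genes of a list in kidney, liver, lung and WAT, over the genes measured in all 4 tissues (number in brackets); the lowest row gives the median of all 25773 entries. Matrix genes have a higher median in the kidney, 1.97, than in liver, lung and WAT (0.73, -0.95 and -0.46), and both proximal tubule lists have their lowest median in the kidney.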

How the data were processed

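Total RNA of each sample was hybridised to a 1-colour Agilent mouse array. The deposited spot intensity is the processed signal, which the authors obtained with Feature Extraction 11.0.1.1 and from which the background had been subtracted. Control spots and spots marked as outliers were left out, the remaining spots of a probe were averaged, and log2 of the intensity deposited by the authors was taken after division by the 75th percentile of the array. A probe was kept if 3 or more of the 6 kidney arrays measured it well above background. Accessions were matched to RefSeq symbols (GRCm38.p6) for 32994 of 56605 probes (58.3%), and the brightest kept probe stood for its symbol. The number of arrays limits the precision.

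The 3 kidneys at 90 weeks were compared with the 3 at 10 weeks by limma 3.58.1 in R 4.3.3 (lmFit and eBayes, Benjamini-Hochberg adjustment over 31505 entries, threshold 0.05). The tissue comparison used an interaction in a fit of all 24 arrays. Simulated data for the kidney comparison had independent noise and 200 changed genes among 31505. There 54 of 100 changes of log2 1 and 90 of 100 of log2 2 were recovered, with 9 false calls. In the data 63.1% of the entries were called, a far larger share, so these figures do not give the power or error of the comparison itself. The members and lists were chosen with earlier results of these data known. The text names the first gene of a list, those with the largest changes among the called, defining genes that were not called, the 10 largest changes in each direction and the largest tissue differences; other genes named were chosen after their values were seen. Alternatives changed the scaling, background correction, filter, choice of probe, fit and kidneys left out. Some genes of the lists are counted but not reported here by name.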

Additional observations from a re-analysis of the deposited data

Results flagged for a closer look

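The change with age in the kidney differed from the mean change of liver, lung and WAT by the interaction test in limma for many genes of the lists, and the 5 largest fitted differences in each direction on the log2 scale are given. Cfd, adipsin, differed by 9.58 (SE 2.21, adjusted p = 0.00497), and it is also a fat cell gene whose level differed between kidneys of 1 age. Its change was 5.00 in the kidney, -5.36 in the liver, -8.43 in the lung and 0.045 in WAT, and against WAT alone the difference of 4.96 was not called (adjusted p = 0.188 by limma). The chemokines Cxcl5 and Ccl7 differed by fitted values of 7.26 and 6.58. Cxcl5 was well above background in 0 and Ccl7 in 1 of the 3 young kidneys, so the sizes of these differences were not measured. Ccl7 was not called against the liver alone (3.88). Mmp7, the matrix protease, differed by 5.65 (adjusted p = 0.0331), and the call was lost without any 1 of the 6 kidneys (5.37 to 5.80) and against the liver (4.10) or the lung (4.06) alone. Krt19, the keratin, differed by 5.32. Krt19 changed by 4.15 in the kidney and by -0.60, -0.49 and -2.42 in liver, lung and WAT.

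Pvalb differed by -4.29, with changes near 0 in the lung and of -0.47 and -0.42 in liver and WAT. Atp6v0d2, a proton pump subunit that macrophages also express, differed by -3.22. Its change was -0.47 in the kidney and 6.06 in WAT, and against the lung alone the difference was -0.38, not called. Gatm differed by -2.72, Cyp7b1 by -2.66 and Slc4a1 by -2.63. Cyp7b1 was not called against the liver alone (-1.17). The call of Slc4a1 was lost against the liver (-1.75) or WAT (-2.48) alone, with spike-in scaling (-2.25), and without each kidney in turn but young kidney 2 (-2.50 to -2.68). What lies behind these differences was not tested.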

How the results depend on the processing

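Over all entries, 13410 were lower, and 8207 when only entries with a symbol were tested and 4392 with spike-in scaling. The members lower numbered 137, and 69 in a fit of all 24 arrays. Leaving out 1 kidney gave 5555 to 6290 entries higher and 11227 to 12957 lower, and 253 to 268 members higher and 124 to 136 lower. In the tissue comparison 1961 entries were higher and 3762 lower, against 1111 and 1312 with liver alone as the other tissue. With spike-in scaling 313 were lower. Leaving out 1 kidney gave 1252 to 1830 higher, the lowest without aged kidney 1, and 2021 to 3425 lower. Of the called members 269 kept their call under every alternative run. The sign of Aqp2 turned with quantile normalization (0.14), with spike-in scaling (0.22), and when 1 kidney was left out it ranged from -0.34 to 0.15, above 0 without young kidney 3 (0.023) or aged kidney 1. Of the 182 genes named that passed, 33 lost their call in the fit of all 24 arrays, 13 with spike-in scaling and 11 with the methods' t-test, and 5 changed sign under some alternative. Among named genes the sign turned with spike-in scaling for C7 (0.0042), Col4a5 (0.13) and Tfcp2l1 (0.013), and, of those not called, for Agt (0.11), Agtr1a (0.12), Camp (0.16), Cdkn1b (0.36), Krt7 (0.25), Ltbr (0.17), Madcam1 (0.36), Mmp8 (0.38), Pax8 (0.37), Prf1 (0.20) and Rsad2 (0.18). With quantile normalization it turned for Agt (0.0090), Agtr1a (0.0077), Cdkn1b (0.22), Krt7 (0.081), Ltbr (0.13), Pax8 (0.22) and Tfcp2l1 (0.040). Cdkn2d was -0.049 and Pax2 -0.016 with median centring, Itgam -0.35, Magi2 -0.10 and Pax2 -0.20 with the mean of the probes, and Epo -0.38 and Pax8 0.050 with normexp. In these settings Itgam (adjusted p = 0.0245 by limma) and Epo (adjusted p = 0.0331) were called lower. Pax8 was called higher with quantile normalization (adjusted p = 0.0383 by limma). When 1 kidney was left out, Alas2 ranged from -2.61 to 0.10, Cdkn1b from -0.078 to 0.0014, Cdkn2d from -0.0053 to 0.13, Itgam from -0.032 to 0.30, Madcam1 from -0.33 to 0.27, Mmp8 from -0.18 to 0.23 and Pax8 from -0.057 to 0.018. Pecam1 was -0.036 with median centring, Synpo -0.017 with the mean of its probes and Slpi -0.42 with only probes well above background on all 6 arrays. Deviations of kidneys with the same number were weakly correlated (0.098, 0.046 and 0.030), beside -0.069 to 0.023 for kidneys with different numbers. With 3 samples an age these small values cannot decide whether the numbers pair samples. With the replicate number as a block, 6339 entries were higher and 12782 lower.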
